A study of Mus musculus with 28 samples.

Results

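The change in RNA between day-1 embryoid bodies and day-1 meiocyte-like cells of the telomere-rescued line was measured in 4 mouse RNA-seq libraries, 2 of RT 1dMeioLC and 2 of RT 1dEB. RT cells derive from embryonic stem cells labelled as Terc-rescued, of strain C57BL6. Terc is the RNA template of telomerase, and the RT label stands for rescued telomere length in a study that set long (LT), short (ST) and rescued (RT) telomeres side by side. Each gene with at least 1 TPM in at least 2 of the 4 libraries was kept, which left 17803 of the 53564 gene symbols in the authors' table. The remaining 35761 symbols fell below that filter. The whole series holds 28 samples in 14 groups.

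RT 1dMeioLC libraries came from PGC-like cells made by 4 days of induction and then aggregated for 1 day with gonadal somatic cells of female Actin-GFP embryos at E12.5, in medium with 3 µM retinoic acid, and were taken as the GFP-negative fraction by flow sorting. RT 1dEB libraries came from the first day of the same induction, which starts from epiblast-like cells (2 days in bFGF and Activin A) and adds BMP4 (500 ng/ml), SCF (100 ng/ml), EGF (50 ng/ml) and LIF (1000 IU). The comparison therefore spans 3 further days of induction, the contact with gonadal cells, the retinoic acid and the sort, and these cannot be told apart. For comparison, the same stages were taken from wild-type LT cells and from ST cells, labelled as Terc-knockout cells of generation G4, with 2 libraries a group. The fit also took in E10.5 primordial germ cells and meiocyte-like cells made from them, with 2 libraries a group. The latter had 1 day with E12.5 gonadal somatic cells and 3 µM retinoic acid. Nothing in the labels says whether RT is 1 clone or whether the 2 libraries of a group came from separate cultures. The tests therefore measure the spread between libraries within all 8 groups together, which may be technical.

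Primordial germ cells (PGCs) are the embryonic founders of eggs and sperm. In the mouse they are specified from the epiblast by BMP signals through Prdm1, Prdm14 and Tfap2c, silence the somatic program and keep part of the pluripotency network. After they reach the gonad they switch on Dazl and the germ cell genes whose promoters lose DNA methylation, and in the female gonad retinoic acid and BMP signals induce Stra8, the gene that starts the meiotic program. Retinoic acid acts through nuclear receptors of the RAR and RXR families that bind direct repeats in the promoters of target genes such as Cyp26a1 and Rarb. Before that stage, germline and meiotic genes are held silent by the PRC1.6 complex, whose subunits MGA with MAX bind the E-box CACGTG and whose subunit E2F6 binds sites with the core GCGGGA.

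Promoter windows from 250 bases before to 50 bases after the annotated start are shown for 4 genes that turned out higher in RT 1dMeioLC, because they carry these elements. The windows are from RefSeq on build GRCm38.p6 and read 5′ to 3′ along the gene's strand. In Rarb (chr14:16575427-16575726, minus strand) and Cyp26a1 (chr19:37697558-37697857, plus strand) the capitals mark a match to a retinoic acid response element of the DR5 type, searched on both strands. In Hormad1 (chr3:95559427-95559726, plus strand) and Slc25a31 (chr3:40708621-40708920, plus strand) the capitals mark CACGTG, which is its own reverse complement, and GCGGGA on either strand, written TCCCGC where it lies on the other strand.
Rarb: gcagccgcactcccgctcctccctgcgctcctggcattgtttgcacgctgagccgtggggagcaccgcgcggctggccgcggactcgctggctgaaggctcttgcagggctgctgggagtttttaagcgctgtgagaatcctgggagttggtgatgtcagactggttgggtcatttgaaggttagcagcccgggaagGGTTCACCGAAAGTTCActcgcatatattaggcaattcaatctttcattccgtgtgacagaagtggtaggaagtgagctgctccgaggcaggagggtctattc
Cyp26a1: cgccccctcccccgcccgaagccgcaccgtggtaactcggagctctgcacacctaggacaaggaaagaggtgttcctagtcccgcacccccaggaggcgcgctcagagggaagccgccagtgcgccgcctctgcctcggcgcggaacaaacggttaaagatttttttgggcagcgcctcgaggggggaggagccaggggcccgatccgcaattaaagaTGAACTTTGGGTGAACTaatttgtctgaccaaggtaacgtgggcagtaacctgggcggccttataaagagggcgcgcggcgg
Hormad1: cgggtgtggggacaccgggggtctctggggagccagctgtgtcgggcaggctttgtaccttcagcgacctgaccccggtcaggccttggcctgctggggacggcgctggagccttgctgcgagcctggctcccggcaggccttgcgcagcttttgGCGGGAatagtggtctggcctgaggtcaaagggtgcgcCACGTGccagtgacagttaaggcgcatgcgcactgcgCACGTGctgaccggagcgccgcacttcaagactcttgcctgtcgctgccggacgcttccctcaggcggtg
Slc25a31: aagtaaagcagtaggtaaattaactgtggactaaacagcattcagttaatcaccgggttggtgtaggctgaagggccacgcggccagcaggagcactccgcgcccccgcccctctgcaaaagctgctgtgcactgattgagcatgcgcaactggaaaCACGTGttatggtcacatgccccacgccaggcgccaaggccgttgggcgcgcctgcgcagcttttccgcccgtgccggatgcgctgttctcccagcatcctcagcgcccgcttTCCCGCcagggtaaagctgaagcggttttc
The DR5 match began at position -53 relative to the start in Rarb and at -32 in Cyp26a1. The marked matches do not overlap one another. Other genes that rose were searched as well. No DR5 match was found in the windows of Stra8 and Dhrs3, and no CACGTG in those of Dazl and Smc1b, while Taf7l held CACGTG. A DR5 match was present in 31 of 27025 genes with a window (0.115%) and in 7 of the 10910 tested genes with one (0.0642%). In the meiotic entry and retinoic acid list it was present in 2 of 17 tested genes with a window (11.8%), Cyp26a1 and Rarb. Both are targets named above and the list was made of such genes, so its share is no independent support. CACGTG was present in 8.09% of all genes with a window, in 11.4% of the 10910 tested genes with one, in 8 of 22 meiotic chromosome genes (36.4%) and in 9 of 19 late germ cell genes (47.4%). GCGGGA was present in 22.0% of all genes, in 38.5% of tested genes, in 15 of 22 meiotic chromosome genes (68.2%) and in 5 of 19 late germ cell genes (26.3%). A match describes the letters of a window only.

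Levels are given per library as TPM rescaled so that the nuclear protein-coding genes add up to 1000000 in each library (scaled TPM), and differences as log2(scaled TPM + 1) in RT 1dMeioLC minus RT 1dEB with their standard error. The rescaling matters here because nuclear protein-coding genes took 60.7% ± 0.13 of the TPM in RT 1dMeioLC and 28.1% ± 1.4 in RT 1dEB (SD, n = 2 each). In RT 1dEB much of the rest lay in an rRNA-like locus of 4 genes on chromosome 17, at 1.38% ± 0.096 in RT 1dMeioLC and 39.6% ± 1.9 in RT 1dEB, and in the mitochondrial rRNAs, at 1.17% ± 0.012 in RT 1dMeioLC and 12.8% ± 0.55 in RT 1dEB. The part of this rRNA share in single results was not tested. The median difference over all tested genes was -0.48 on the scaled TPM, 0.46 on the TPM as deposited and 0.01 after quantile normalization.

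**Figure D1:**
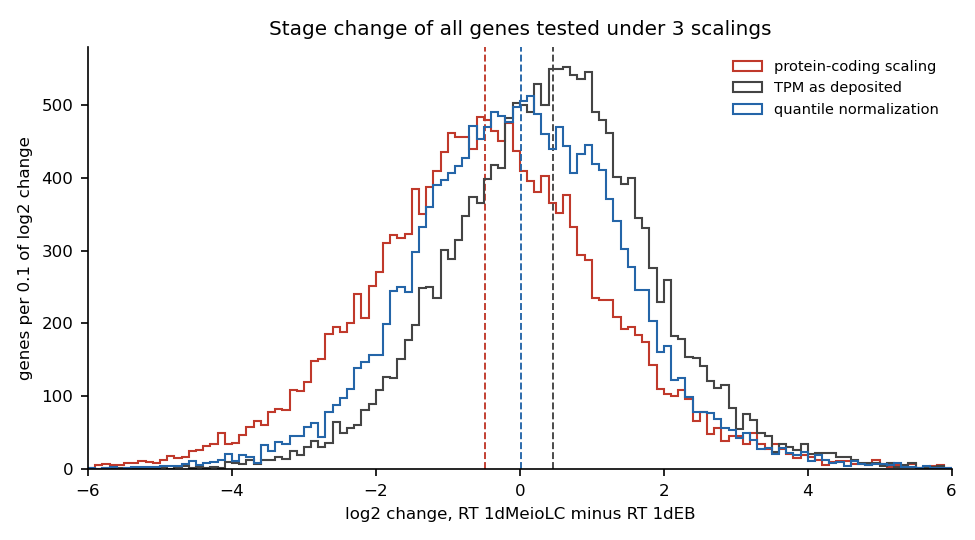
Histograms of the difference between RT 1dMeioLC and RT 1dEB (x axis, log2; y axis, number of genes) for the 17803 tested genes under protein-coding scaling, TPM as deposited and quantile normalization, with the median of each as a line. The distribution shifts along the axis between scalings, with medians at -0.48, 0.46 and 0.01.

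A gene is said to have risen or fallen only if its adjusted p was below 0.05 and its difference was at least 1 on the log2 scale, in the same direction, under all 3 of these scalings. This rule took in 5415 genes (30.4% of those tested), of which 2931 were higher (16.5%) and 2484 were lower (14.0%) in RT 1dMeioLC. On the scaled TPM alone 9199 genes (51.7%) were called and 13738 (77.2%) passed the adjusted p whatever their size, and 2990 genes were called higher (16.8%) and 6209 lower (34.9%). On the TPM as deposited the split was 5869 higher and 2484 lower. Of the genes called on the scaled TPM, the rule of all 3 scalings kept 2931 of 2990 higher ones but 2484 of 6209 lower ones. The rule was thus stricter for falls than for rises, and the counts of falls in the lists below carry this limit. The filter was set on the TPM as deposited, of which coding genes took a smaller share in RT 1dEB. On the scaled TPM, low genes therefore passed it more readily through RT 1dMeioLC than through RT 1dEB. A gene near absent from 1 stage was tested only through the stage where it was high, so counts of rises among low genes partly follow from the filter. In 15763 genes (88.5%) the 2 groups' libraries did not overlap, so a lack of overlap alone says little about any 1 gene.

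Terc (chr3:96414437-96414859, mm10) checked the labels. It had 5.08 and 1.15 scaled TPM in the RT 1dMeioLC libraries, against 12.4 and 6.008 in the RT 1dEB libraries. Terc was listed at 0 in all 4 ST libraries of these stages and was detected in all 4 RT and all 4 LT libraries, as the labels have it. The stage difference of -1.42 ± 0.49 (adjusted p = 0.0217) held on the scaled TPM only. It was -0.39 on the TPM as deposited, -0.67 without RT 1dMeioLC replicate 2 and -0.95 without RT 1dEB replicate 1, and no longer called. Germ cell markers were all detected in RT 1dMeioLC, from Prdm1 at 2.93 and 2.35 to Dppa3 at 573 and 527, with Pou5f1 low at 4.21 and 6.06. In RT 1dEB the epiblast markers Pou5f1, Sox2, Nanog, Otx2, Dnmt3b and Epcam were present, while Fgf5 had only 2.51 and 1.02 scaled TPM, against 0.172 and 0.195 in RT 1dMeioLC, and did not pass the filter, which was set on the TPM as deposited.

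Other cell types also differed between the stages. Of 17 tested gonadal somatic markers 12 rose and none fell in all 3 scalings, and 1 was called lower on the scaled TPM alone. The summed level of the 20 listed markers was 511 to 515 scaled TPM in RT 1dMeioLC, against 98.6 to 99.3 in RT 1dEB. Tcf21, a transcription factor of gonadal and other organ mesenchyme, had 58.0 and 58.4 scaled TPM in RT 1dMeioLC, against 0.148 and 0.270 in RT 1dEB (5.62 ± 0.16, adjusted p = 4.84e-10). Wt1, which marks the supporting and coelomic epithelial cells of the gonad, had 53.2 and 50.2 in RT 1dMeioLC, against 6.05 and 5.85 in RT 1dEB (2.92 ± 0.092). Of 15 tested blood and macrophage markers 14 rose, and 5 more lay below the filter. The sum of all 20 was 2331 to 2369 in RT 1dMeioLC, against 67.6 to 93.2 in RT 1dEB. The macrophage receptor gene Csf1r was called lower on the scaled TPM but not in all 3 scalings, with 10.6 and 7.57 in RT 1dMeioLC, against 21.0 and 27.3 in RT 1dEB. Ptprc lay below the filter. No marker of these 2 lists was at 0 in both libraries of either RT group. The stroma and fibroblast markers had 4 higher and 4 lower of 20 in all 3 scalings, and 4 higher and 7 lower on the scaled TPM alone. Their sums were 1317 to 1333 in RT 1dMeioLC and 2008 to 2046 in RT 1dEB. The endothelial markers had 3 lower of 9 tested in all 3 scalings and 5 lower on the scaled TPM alone. Their sums were 239 to 248 in RT 1dMeioLC and 259 to 273 in RT 1dEB. The sort on GFP was made to remove the aggregated gonadal cells, and the part of these cells in the results below was not tested. Of 10 tested sex-linked genes none was called in either direction in all 3 scalings, and 3 were called lower on the scaled TPM alone. In bulk RNA, fewer cells of a type and less RNA per cell cannot be told apart.

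**Figure D2:**
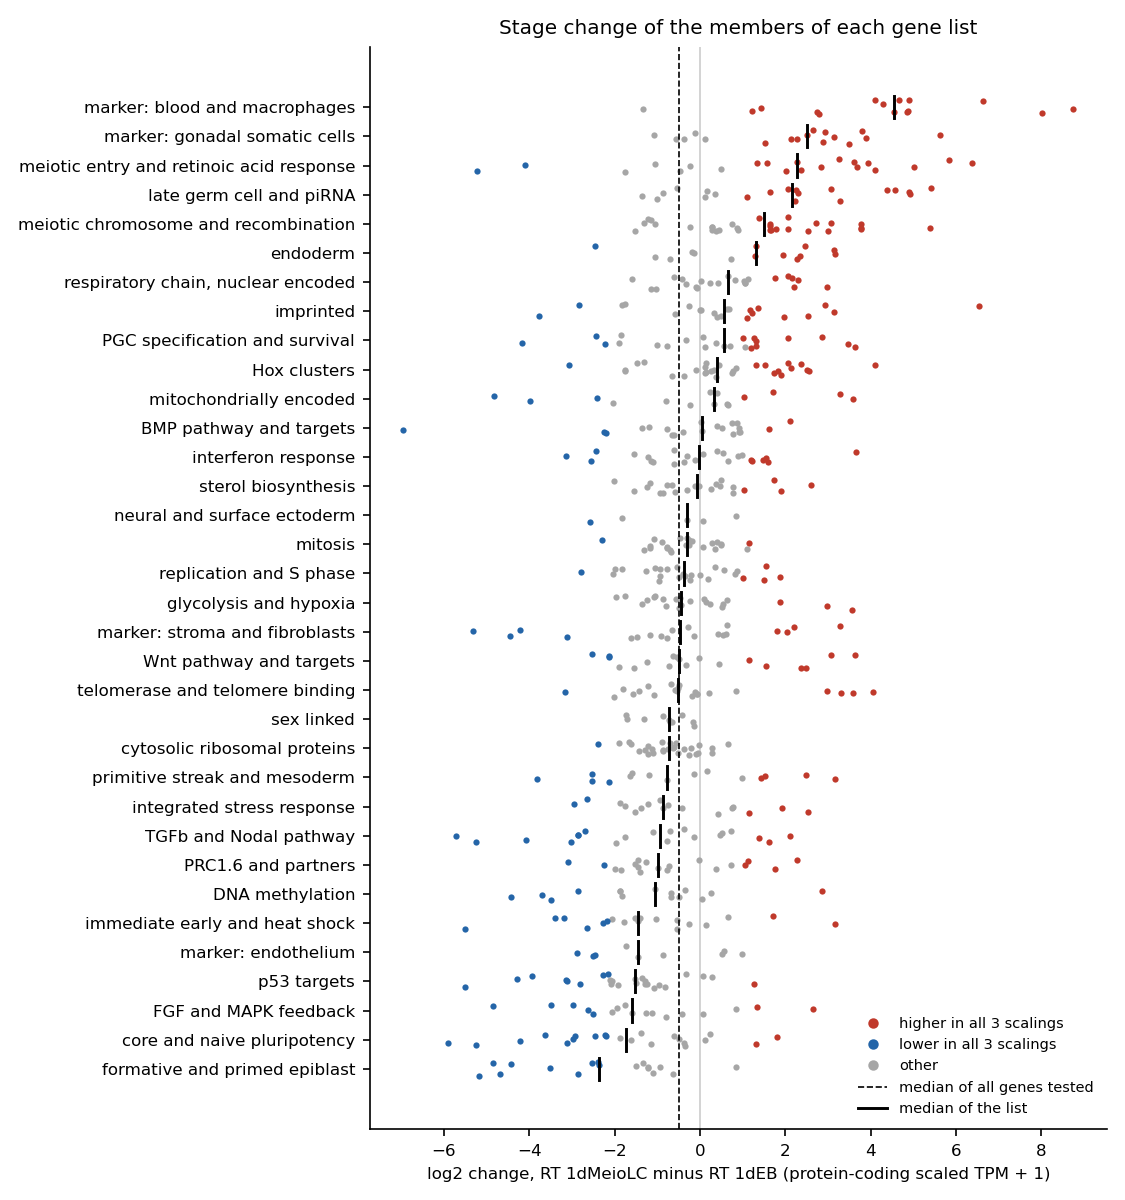
Difference between RT 1dMeioLC and RT 1dEB (x axis, log2 of scaled TPM + 1) for every tested member of 34 gene lists (1 row each). Red points rose and blue points fell in all 3 scalings, grey points did neither, bars give list medians, and the dashed line is the median of all genes at -0.48.

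The meiotic entry and retinoic acid genes were mostly higher in the meiocyte-like cells. Of 21 tested members 14 rose and 2 fell, with a median of 2.26. Stra8 (chr6:34920163-34939344), the retinoic acid induced gene that starts the meiotic program, had 1319.6 and 1287 scaled TPM in RT 1dMeioLC, against 19.5 and 24.7 in RT 1dEB. The difference was 5.83 ± 0.19 (adjusted p = 1.11e-09). Cyp26a1, which degrades retinoic acid and carries the DR5 match shown above, had 261 and 272 in RT 1dMeioLC, against 2.36 and 2.15 in RT 1dEB (6.36 ± 0.34, adjusted p = 3.44e-08). Rarb, a receptor gene with the other DR5 match, had 21.3 and 20.5 in RT 1dMeioLC, against 0.397 and 0.483 in RT 1dEB (3.93 ± 0.14). In both genes the meiocyte-like libraries agreed closely with each other and none came near the embryoid body levels.

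The rest of the retinoid machinery rose with a few exceptions. Dhrs3, a retinal reductase, had 204 and 196 scaled TPM in RT 1dMeioLC, against 4.82 and 5.64 in RT 1dEB (5.01 ± 0.17). Higher levels were also found for the degrading enzymes Cyp26b1 and Cyp26c1, the synthesizing enzyme Aldh1a2, the binding proteins Rbp4 and Crabp2, the uptake receptor Stra6, and the target gene Hoxb1, whose differences ran from 1.34 in Stra6 to 3.69 in Cyp26b1. Rxra and Crabp1 were not called in all 3 scalings. A pair of receptor genes went the other way. Rarg had 1.61 and 1.37 in RT 1dMeioLC, against 89.0 and 95.6 in RT 1dEB (-5.23 ± 0.22, adjusted p = 5.57e-09). Rara had 3.05 and 4.24 in RT 1dMeioLC, against 76.3 and 80.2 in RT 1dEB (-4.10 ± 0.16). Both receptor genes fell in all 3 scalings. Some of these genes, such as Aldh1a2, are also expressed by gonadal somatic cells, whose marker sums are given above.

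Other regulators of meiotic entry were uneven. Meioc, a cytoplasmic factor that keeps germ cells in meiotic prophase, had 22.9 and 21.9 scaled TPM in RT 1dMeioLC, against 4.04 and 3.72 in RT 1dEB (2.26 ± 0.14) and rose. Its partner Ythdc2 had 4.36 and 3.29 in RT 1dMeioLC, against 6.28 and 5.08 in RT 1dEB (-0.47 ± 0.18). Zglp1, a BMP-dependent regulator of the oogenic program, had 26.5 and 17.9 in RT 1dMeioLC, against 14.7 and 15.8 in RT 1dEB (0.49 ± 0.27, adjusted p = 0.127). The last 2 passed no call. Rec8, the meiotic cohesin subunit that also responds to retinoic acid, had 17.1 and 21.2 in RT 1dMeioLC, against 22.4 and 22.7 in RT 1dEB, and its difference of -0.23 ± 0.13 turned to 0.78 on the TPM as deposited and 0.28 after quantile normalization. Meiosin, listed under the symbol Gm4969, lay below the filter with 1.28 and 1.76 in RT 1dMeioLC and 1.34 and 1.89 in RT 1dEB.

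Genes of the meiotic chromosome were higher as well. Of 30 tested members 16 rose and none fell in all 3 scalings, with a median of 1.51, and the summed level of all 37 was 1504 to 1626 scaled TPM in RT 1dMeioLC, against 395 to 428 in RT 1dEB. The other 14 tested members passed in neither direction in all 3 scalings, though on the scaled TPM alone 5 of the 30 were called lower. Tex12, a protein of the central element of the synaptonemal complex, had 71.1 and 72.3 in RT 1dMeioLC, against 0.857 and 0.625 in RT 1dEB (5.39 ± 0.18, adjusted p = 1.4e-09). Hormad1, an axis protein that marks unsynapsed chromosomes and whose promoter window above holds the E-box 2 times, had 119 and 118 in RT 1dMeioLC, against 7.86 and 7.72 in RT 1dEB (3.77 ± 0.18). Smc1b, a meiotic cohesin subunit, had 54.8 and 53.1 in RT 1dMeioLC, against 3.62 and 2.51 in RT 1dEB (3.77 ± 0.15). All 3 genes stood at trace to single-digit levels in the embryoid bodies.

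Sycp3 (chr10:88459569-88473236), the lateral element protein used to stage meiotic prophase, was already measurable before induction of meiosis. It had 255 and 202 scaled TPM in RT 1dMeioLC, against 25.9 and 26.1 in RT 1dEB (3.08 ± 0.21, adjusted p = 2.01e-07). Syce2, another central element gene, had 603 and 565 in RT 1dMeioLC, against 71.2 and 73.0 in RT 1dEB (3.00 ± 0.053). Tex11, Stag3, Meiob, Majin, Prdm9, Tex15, Sycp1, Syce1, Hormad2, Terb2 and Ccdc36 also rose, by 1.38 to 3.78. Several genes of recombination passed no call. Dmc1, the meiotic strand exchange protein, had 18.9 and 16.8 in RT 1dMeioLC, against 17.2 and 12 in RT 1dEB (0.29 ± 0.21, adjusted p = 0.22). Spo11, which makes the meiotic breaks, lay below the filter with 1.10 and 0.496 in RT 1dMeioLC and 0.355 and 0.324 in RT 1dEB. Mei1, Mei4, Msh4, Msh5, Rad21l and Spata22 were below the filter too. Mlh3, a crossover factor, had 1.59 and 1.16 in RT 1dMeioLC, against 5.97 and 5.55 in RT 1dEB (-1.51 ± 0.22), a difference not called in all 3 scalings.

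Late germ cell genes, which follow the arrival of PGCs in the gonad, rose in 13 of 20 tested members and fell in none in all 3 scalings, with a median of 2.15. On the scaled TPM alone 1 was called lower. Their sum was 1025 to 1067 scaled TPM in RT 1dMeioLC, against 117 to 132 in RT 1dEB. Dazl (chr17:50279395-50293636), the RNA-binding protein that licenses germ cells for gametogenesis, had 416 and 397 in RT 1dMeioLC, against 9.83 and 7.56 in RT 1dEB (5.40 ± 0.11, adjusted p = 6.08e-11). Ddx4, the germ cell RNA helicase also called mouse vasa homolog, had 29.5 and 35.8 in RT 1dMeioLC, against 11.8 and 8.01 in RT 1dEB (1.64 ± 0.23, adjusted p = 5.93e-05). Both rose.

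Several transposon control genes of this list rose beside them. Gtsf1, a zinc finger protein of the piRNA pathway, had 153 and 141 scaled TPM in RT 1dMeioLC, against 4.76 and 3.20 in RT 1dEB (4.91 ± 0.37). Asz1, a mitochondrial surface protein of that pathway, had 20.2 and 19.6 in RT 1dMeioLC and was listed at 0 in both RT 1dEB libraries. Mael, Mov10l1 and Tdrkh rose by 2.07 to 2.29. Slc25a31, a germ cell adenine nucleotide carrier whose promoter window is printed above, had 88.1 and 89.4 in RT 1dMeioLC, against 2.86 and 2.69 in RT 1dEB (4.57 ± 0.31). Tex101 differed between the 2 embryoid body libraries, with 103 and 107 in RT 1dMeioLC, against 5.89 and 0.767 in RT 1dEB (4.93 ± 0.52). Its libraries did not overlap between the stages, as in 88.5% of all tested genes. Taf7l, Sohlh2, Brdt and Ddx25 rose as well. Piwil2, Tdrd7, Figla, Tdrd12, Sohlh1, Tdrd5 and Pld6 passed in neither direction, and Nanos2 was listed at 0 in RT 1dMeioLC.

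**Figure D3:**
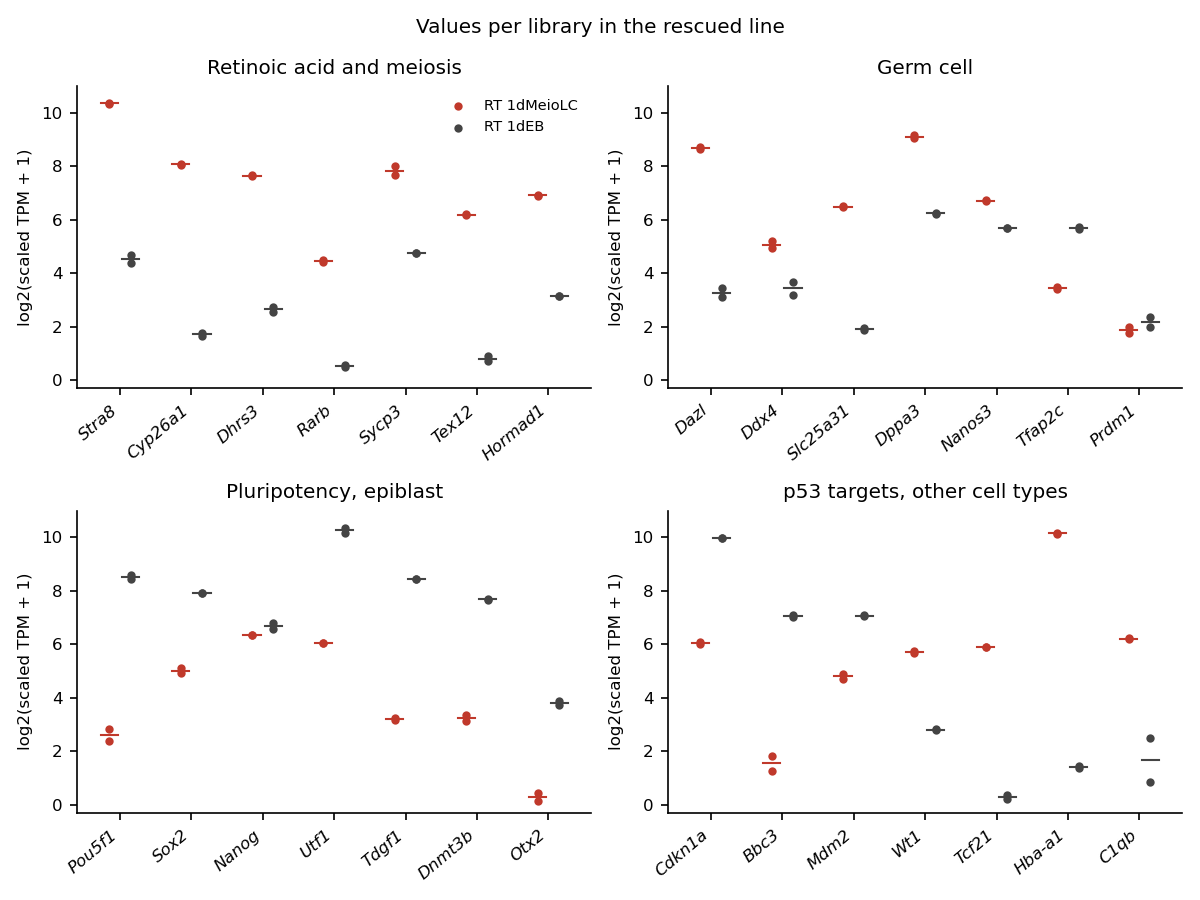
Level of 28 genes (y axis, log2 of scaled TPM + 1) in each RT 1dMeioLC library and each RT 1dEB library, in 4 panels for meiotic, germ cell, pluripotency, and p53 or somatic genes. Stra8, Dazl and Dppa3 sit higher in RT 1dMeioLC, while Pou5f1, Dnmt3b and Cdkn1a sit higher in RT 1dEB, with replicates close together.

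Genes of PGC specification and survival went both ways. Of 23 tested members 9 rose and 3 fell, with a median of 0.55. Dppa3 (chr6:122626410-122630272), a maternal factor that shields the genome in PGCs and is also called Stella, had 573 and 527 scaled TPM in RT 1dMeioLC, against 73.6 and 75.5 in RT 1dEB (2.87 ± 0.066, adjusted p = 1.21e-10). Nanos3, needed for PGC survival, had 102 and 105 in RT 1dMeioLC, against 50.3 and 50.9 in RT 1dEB (1.02 ± 0.18, adjusted p = 0.000441). That difference lies at the edge of the 2-fold rule, and was 0.96 with a pseudocount of 5 and 0.996 without RT 1dMeioLC replicate 2. Kit, the receptor for stem cell factor on migrating PGCs, had 22.1 and 20.9 in RT 1dMeioLC, against 8.23 and 7.99 in RT 1dEB (1.30 ± 0.11). The homeobox genes Rhox6 and Rhox9, the surface genes Ifitm1, Ifitm2 and Ifitm3, and the chemokine receptor Cxcr4 rose by 1.20 to 3.62.

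The 3 founding transcription factors did not rise. Tfap2c had 10.2 and 9.65 scaled TPM in RT 1dMeioLC, against 51.3 and 48.7 in RT 1dEB, and fell (-2.22 ± 0.14, adjusted p = 1.62e-07). Prdm1 had 2.93 and 2.35 in RT 1dMeioLC, against 4.18 and 2.96 in RT 1dEB (-0.32 ± 0.15, adjusted p = 0.0769), with a sign that turned to 0.38 on the TPM as deposited. Prdm14 had 6.04 and 6.64 in RT 1dMeioLC, against 6.59 and 4.96 in RT 1dEB (0.13 ± 0.15, adjusted p = 0.471), and its libraries overlapped. Lin28a, an RNA-binding protein that blocks let-7 maturation, fell to 2.91 and 2.68 in RT 1dMeioLC, against 68.3 and 66.6 in RT 1dEB (-4.17 ± 0.15). Itgb3, the CD61 surface marker used to sort PGCs, had 2.91 and 4.12 in RT 1dMeioLC, against 23.2 and 22.8 in RT 1dEB (-2.42 ± 0.23) and fell.

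Pluripotency genes fell in 10 of 22 tested members and rose in 2, with a median of -1.74. Pou5f1 (chr17:35506018-35510772), the core factor OCT4, had 4.21 and 6.06 scaled TPM in RT 1dMeioLC, against 347 and 381 in RT 1dEB (-5.91 ± 0.19, adjusted p = 8.26e-10). Sox2, its partner, had 33.2 and 29.3 in RT 1dMeioLC, against 242 and 244 in RT 1dEB (-2.92 ± 0.093). Nanog, the third core factor, had 81.1 and 81.2 in RT 1dMeioLC, against 95.4 and 111 in RT 1dEB (-0.34 ± 0.084, adjusted p = 0.00356). Among the core factors Pou5f1 and Sox2 fell in all 3 scalings, while the difference of Nanog was under 2-fold and turned to 0.75 on the TPM as deposited.

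Tdgf1, a co-receptor of Nodal, fell to 8.04 and 8.35 scaled TPM in RT 1dMeioLC, against 349.6 and 344 in RT 1dEB (-5.24 ± 0.098). Utf1, a chromatin factor of embryonic stem cells, had 65.2 and 65.0 in RT 1dMeioLC, against 1162 and 1291 in RT 1dEB (-4.21 ± 0.086) and fell. The naive factors Klf4, Klf5, Esrrb, Tbx3 and Gbx2 and the growth factor Fgf4 fell by 2.19 to 3.63. Against this trend Dppa5a, an RNA-binding protein of germ and stem cells, had 19046 and 17407 in RT 1dMeioLC, against 6953 and 7775 in RT 1dEB (1.31 ± 0.077), and Fbxo15 rose with it. Zfp42, Nr0b1, Dppa2 and Dppa4 had differences between -0.61 and 0.23 and passed in neither direction.

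Formative and primed epiblast genes, which mark the epiblast-like cells the induction starts from, fell in 9 of 17 tested members and rose in none, with a median of -2.35. Dnmt3b, a de novo DNA methyltransferase, had 7.83 and 9.34 scaled TPM in RT 1dMeioLC, against 208 and 202 in RT 1dEB (-4.43 ± 0.12, adjusted p = 2.54e-10). Pim2, a kinase, had 5.23 and 6.09 in RT 1dMeioLC, against 241 and 239 in RT 1dEB (-5.18 ± 0.25). Pou3f1, a POU factor of the primed epiblast, had 2.46 and 2.40 in RT 1dMeioLC, against 93.0 and 82.0 in RT 1dEB (-4.69 ± 0.14). Otx2, a factor that restrains PGC entry, was near absent at 0.102 and 0.346 in RT 1dMeioLC, against 12.3 and 13.5 in RT 1dEB (-3.51 ± 0.26).

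Lineage genes are given here by germ layer list. Primitive streak and mesoderm genes had 4 higher and 4 lower of 15 tested, with a median of -0.78, and 13 members below the filter. T, the streak factor brachyury, had 1.11 and 1.05 scaled TPM in RT 1dMeioLC, against 5.64 and 4.94 in RT 1dEB, a difference of -1.59 ± 0.19 that shrank to -0.58 on the TPM as deposited. Snai1, a repressor of epithelial genes, had 5.57 and 5.10 in RT 1dMeioLC, against 79.8 and 98.0 in RT 1dEB (-3.82 ± 0.24) and fell, as did Tbx6, Wnt3 and Wnt8a. Gata6, a factor of heart, gut and yolk sac, rose to 47.5 and 47.7 in RT 1dMeioLC, against 5.24 and 3.78 in RT 1dEB (3.15 ± 0.22), and Cdx1, Pdgfra and Meox1 rose too. Pdgfra is also a gonadal somatic marker and counted among those above.

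Endoderm genes rose in 8 of 14 tested members and fell in 1, with a median of 1.31, and 6 members lay below the filter. Gata4 had 40.3 and 40.4 scaled TPM in RT 1dMeioLC, against 3.35 and 4.07 in RT 1dEB (3.14 ± 0.091), but it is also a gonadal somatic marker and counted among those above. Gata6 and Cxcr4 are likewise counted here and in the mesoderm and PGC lists. The liver and yolk sac genes Afp, Apoa1, Ttr and Hnf4a rose to levels no higher than 5.22 scaled TPM in RT 1dMeioLC. Genes this low could pass the filter through RT 1dMeioLC alone. Apoa2 fell, with an adjusted p of 0.0633 at a pseudocount of 0.1. Ectoderm genes were mostly unmeasured, with 14 of 19 below the filter and 1 lower of 5 tested.

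The Hox clusters rose in 11 of 30 tested members and fell in 1, with a median of 0.41. Hoxb1 (chr11:96365752-96368256), a direct retinoic acid target at the 3′ end of its cluster, had 18.5 and 16.97 scaled TPM in RT 1dMeioLC, against 3.45 and 1.92 in RT 1dEB (2.38 ± 0.35, adjusted p = 0.000106). Of the A cluster, Hoxa2, Hoxa3, Hoxa4 and Hoxa5 rose and Hoxa7, Hoxa9 and Hoxa10 passed in neither direction. Hoxb13, at the other end of its cluster, fell to 0.780 and 1.10 in RT 1dMeioLC, against 14.0 and 16.4 in RT 1dEB (-3.06 ± 0.17).

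Signalling genes are given here by pathway, beside 16.5% higher and 14.0% lower over all genes. BMP genes had 2 higher and 3 lower of 21 tested, with a median of 0.04, and their share of lower genes was near that of all genes. Grem1, a secreted BMP antagonist, had 0.207 and 0.235 scaled TPM in RT 1dMeioLC, against 154 and 146 in RT 1dEB, which was the largest difference of that list (-6.95 ± 0.13, adjusted p = 2.46e-11). The immediate BMP targets Id1 and Id3 had differences of -0.78 ± 0.065 and -0.40 ± 0.050, and Id2 of 0.76 ± 0.072, none of these 3 past 2-fold. TGFb and Nodal genes had 3 higher and 7 lower of 20, with a median of -0.94. Nodal, a ligand of the early epiblast, had 16.6 and 13.2 in RT 1dMeioLC, against 122 and 106 in RT 1dEB (-2.86 ± 0.24). Inhba, a subunit of activin, had 1.08 and 0.685 in RT 1dMeioLC, against 97.5 and 97.5 in RT 1dEB (-5.72 ± 0.14). Foxh1, Lefty1, Acvr2b and Tdgf1 fell with them, while Skil, Tgfbr1 and Tgfb2 rose.

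Wnt genes had 6 higher and 3 lower of 19, with a median of -0.49, and their share of lower genes was near the 14.0% of all genes. Dkk1, a secreted Wnt inhibitor, rose to 12.8 and 15.2 scaled TPM in RT 1dMeioLC, against 0.144 and 0.262 in RT 1dEB (3.64 ± 0.18). Axin2, the common readout of the pathway, had 4.61 and 5.48 in RT 1dMeioLC, against 9.14 and 8.77 in RT 1dEB (-0.72 ± 0.14). The inhibitors Nkd1, Nkd2 and Znrf3 rose, while Axin2 and Lef1 passed in neither direction. FGF and MAPK feedback genes had 2 higher and 5 lower of 17, with a median of -1.60. Etv4, an ETS factor downstream of FGF, had 2.36 and 1.57 in RT 1dMeioLC, against 82.5 and 83.5 in RT 1dEB (-4.84 ± 0.21), and Spry4, Fgf4, Dusp4 and Etv1 fell by 2.49 to 3.49. Spry2, a feedback inhibitor of the same pathway, rose to 398 and 382 in RT 1dMeioLC, against 146 and 160.4 in RT 1dEB (1.34 ± 0.052).

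p53 target genes were high in the embryoid bodies. Of 25 tested members 8 fell and 1 rose in all 3 scalings, with a median of -1.51, and on the scaled TPM alone 19 were called lower. Their sum was 593 to 613 scaled TPM in RT 1dMeioLC, against 3525 to 3612 in RT 1dEB. Cdkn1a (chr17:29090976-29100727), the cell cycle inhibitor p21, had 63.3 and 66.7 in RT 1dMeioLC, against 1001 and 1009.7 in RT 1dEB (-3.93 ± 0.058, adjusted p = 5.92e-12). Bbc3, the pro-apoptotic gene Puma, had 1.42 and 2.52 in RT 1dMeioLC, against 128 and 135 in RT 1dEB (-5.50 ± 0.44). Phlda3, an inhibitor of AKT, had 25.7 and 15.3 in RT 1dMeioLC, against 412 and 399 in RT 1dEB (-4.29 ± 0.19). Bax, Pidd1, Aen, Mdm2 and Zmat3 fell as well, by 2.15 to 3.13. Sesn1, an antioxidant target, was the one that rose, with 15.5 and 19.2 in RT 1dMeioLC, against 6.21 and 7.02 in RT 1dEB (1.26 ± 0.13).

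Immediate early and heat shock genes had 2 higher and 6 lower of 19, with a median of -1.44. Fos rose to 58.1 and 57.7 scaled TPM in RT 1dMeioLC, against 4.44 and 7.02 in RT 1dEB (3.16 ± 0.18). Its relative Fosl1 was listed at 0 in both RT 1dMeioLC libraries, against 46.6 and 41.7 in RT 1dEB. Junb had 12.9 and 15.2 in RT 1dMeioLC, against 143 and 171 in RT 1dEB (-3.39 ± 0.24), and Jund, Klf6, Ier3 and Nr4a1 fell too. Members of the AP-1 family therefore moved in opposite directions. Genes of the integrated stress response had 3 higher and 2 lower of 17, with a median of -0.86. These shares were near those of all genes (16.5% higher and 14.0% lower). Asns, which makes asparagine, rose to 287 and 260.4 in RT 1dMeioLC, against 68.3 and 74.1 in RT 1dEB (1.93 ± 0.070), whereas Atf5 fell to 2.37 and 2.20 in RT 1dMeioLC, against 26.4 and 22.3 in RT 1dEB (-2.94 ± 0.19).

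Replication genes had 4 higher and 1 lower of 26 in all 3 scalings, with a median of -0.38. Mitosis genes had 1 higher and 1 lower of 24, with a median of -0.31. Over all genes 16.5% were higher and 14.0% lower, so the share of higher replication genes was near that of all genes. On the scaled TPM alone 4 replication genes were called higher and 6 lower, and 2 mitosis genes higher and 5 lower. Mki67, a marker of cycling cells, had 26.1 and 20.2 scaled TPM in RT 1dMeioLC, against 26.8 and 29.8 in RT 1dEB (-0.29 ± 0.11, adjusted p = 0.0322), and its sign turned to 0.74 on the TPM as deposited. E2f1, a driver of S phase entry, fell to 3.82 and 4.47 in RT 1dMeioLC, against 34.8 and 33.8 in RT 1dEB (-2.78 ± 0.15). The clamp loader subunits Rfc3 and Rfc4, the cyclin Ccne2 and the replication factor Gins1 rose by 1.00 to 1.87. In mitosis Plk1, a kinase of the spindle, fell to 53.4 and 47.6 in RT 1dMeioLC, against 245 and 260.3 in RT 1dEB (-2.30 ± 0.11), and Birc5 rose (1.16 ± 0.055).

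Among DNA methylation genes 1 rose and 4 fell of 15 tested, with a median of -1.04. Dnmt3l, a cofactor of the de novo enzymes, had 12.2 and 6.19 scaled TPM in RT 1dMeioLC, against 131 and 121 in RT 1dEB (-3.70 ± 0.35). Tet1, which oxidizes methylated cytosine, had 4.26 and 3.65 in RT 1dMeioLC, against 55.5 and 52.7 in RT 1dEB (-3.48 ± 0.094). Dnmt3a and Dnmt3b also fell, so that all 3 genes of the de novo machinery were lower in RT 1dMeioLC. Dnmt1, the maintenance enzyme, had 30.4 and 29.6 in RT 1dMeioLC, against 46.4 and 50.6 in RT 1dEB (-0.67 ± 0.073) and passed no call.

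Genes of the PRC1.6 complex and its partners had 4 higher and 2 lower of 19, with a median of -0.98. Over all genes 16.5% were higher and 14.0% lower. L3mbtl2, a chromatin reader of the complex, had 7.16 and 6.96 scaled TPM in RT 1dMeioLC, against 66.5 and 69.5 in RT 1dEB (-3.10 ± 0.12, adjusted p = 2.63e-09). Mga, its DNA-binding scaffold, had 10.2 and 9.45 in RT 1dMeioLC, against 41.8 and 42.1 in RT 1dEB (-1.99 ± 0.088), a difference not called on the TPM as deposited. E2f6 had 17.4 and 18.4 in RT 1dMeioLC, against 7.66 and 8.64 in RT 1dEB (1.05 ± 0.14) and rose, as did Cbx3, Yaf2 and Rnf2. Ehmt2, a histone H3 lysine methyltransferase that silences germline genes, fell (-2.24 ± 0.13).

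Telomerase and telomere genes had 4 higher and 1 lower of 22 in all 3 scalings, with a median of -0.50. The share of higher genes was near the 16.5% of all genes, and on the scaled TPM alone 4 were called higher and 7 lower. The 4 that rose were all Zscan4 genes, which mark a transient state of embryonic stem cells in which telomeres lengthen, and which are near-identical copies, so that reads may be shared between them. Zscan4d had 25.4 and 20.6 scaled TPM in RT 1dMeioLC, against 1.15 and 0.839 in RT 1dEB (3.58 ± 0.31, adjusted p = 1.72e-06). Zscan4c had 19.8 and 23.5 in RT 1dMeioLC, against 0 and 0.837 in RT 1dEB, and Zscan4a and Zscan4f rose with them. Tert, the telomerase protein, had 1.95 and 1.36 in RT 1dMeioLC, against 9.33 and 9.87 in RT 1dEB (-2.01 ± 0.20, adjusted p = 4.71e-06), a difference of -0.89 on the TPM as deposited. Gar1, a protein of the telomerase and box H/ACA particles, was the gene that fell, with 13.3 and 17.03 in RT 1dMeioLC, against 137 and 147 in RT 1dEB (-3.15 ± 0.16). The shelterin genes Terf1, Terf2, Tinf2, Acd, Pot1a, Pot1b and Terf2ip passed in neither direction in all 3 scalings.

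Imprinted genes rose in 9 of 22 tested members and fell in 2, with a median of 0.56. Mest, a paternally expressed gene of mesoderm, had 309 and 291 scaled TPM in RT 1dMeioLC, against 2.56 and 1.93 in RT 1dEB (6.54 ± 0.079, adjusted p = 1.38e-12). H19, a maternally expressed long RNA, had 815 and 816 in RT 1dMeioLC, against 93.5 and 90.1 in RT 1dEB (3.14 ± 0.061). Meg3, another maternally expressed long RNA, went the other way with 2.50 and 3.17 in RT 1dMeioLC, against 50.8 and 51.6 in RT 1dEB (-3.77 ± 0.13). Mest and H19 are also abundant in embryonic mesenchyme, and the part of such cells, whose marker sums are given above, was not tested.

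Interferon response genes had 6 higher and 3 lower of 24, with a median of -0.02, where 16.5% and 14.0% of all genes were higher and lower. Their sum was 753 to 794 scaled TPM in RT 1dMeioLC, against 1329 to 1353 in RT 1dEB. Rtp4, an interferon-induced chaperone, rose to 171 and 146 in RT 1dMeioLC, against 11.03 and 12.2 in RT 1dEB (3.65 ± 0.15). Bst2, an antiviral tether, fell to 155 and 145 in RT 1dMeioLC, against 805 and 823 in RT 1dEB (-2.43 ± 0.087). Isg15, a ubiquitin-like modifier, fell to 4.55 and 5.79 in RT 1dMeioLC, against 61.1 and 45.4 in RT 1dEB (-3.13 ± 0.19). The pathway therefore had no single direction.

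Nuclear genes of the respiratory chain rose in 6 of 23 members and fell in none in all 3 scalings, with a median of 0.65. On the scaled TPM alone 10 were called higher and 3 lower. Cycs, cytochrome c, had 605 and 571 scaled TPM in RT 1dMeioLC, against 74.8 and 73.3 in RT 1dEB (2.97 ± 0.053). Glycolysis and hypoxia genes had 3 higher and none lower of 22 in all 3 scalings, and 3 higher and 6 lower on the scaled TPM alone, with a median of -0.45. Among the higher was Bnip3, a mitophagy receptor, at 245 and 208 in RT 1dMeioLC, against 15.8 and 21.0 in RT 1dEB (3.56 ± 0.20). Sterol genes had 4 higher and none lower of 22 in all 3 scalings, and 4 higher and 4 lower on the scaled TPM alone, with a median of -0.07. Among the higher was Insig1 (2.60 ± 0.097), a sterol sensor of the endoplasmic reticulum. The shares of higher glycolysis and sterol genes were near the 16.5% of all genes. Cytosolic ribosomal protein genes had 1 lower and none higher of 28 in all 3 scalings, with a median of -0.73. On the scaled TPM alone 10 were called lower and none higher.

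Transcripts of the mitochondrial genome did not move together. Of 15 members 4 rose and 3 fell. mt-Cytb had 49966 and 47397 scaled TPM in RT 1dMeioLC, against 5107 and 4869 in RT 1dEB (3.29 ± 0.037, adjusted p = 1.31e-12). mt-Rnr2, the large rRNA, had 12196 and 11908 in RT 1dMeioLC, against 363310.0 and 319172 in RT 1dEB (-4.82 ± 0.060, adjusted p = 1.58e-12). Both rRNAs fell, together with the rRNA-like locus on chromosome 17 whose share is given above.

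Short RNA genes were called lower more often than all genes. Of 272 tested snoRNA genes 13 were higher and 110 lower, of 95 snRNA genes 5 higher and 46 lower, and of 456 miRNA genes 37 higher and 210 lower, with medians of -2.37, -2.81 and -2.72. Standard RNA-seq libraries capture such short RNAs poorly. Among longer noncoding classes 155 of 615 lincRNA genes were higher and 115 lower, and 137 of 905 antisense genes were higher and 213 lower. The sources at hand do not state whether the counting used strand, in which case an antisense gene and its partner may share reads. Replication-dependent histone genes had 10 higher and 7 lower of 65, near the shares of all genes (16.5% higher and 14.0% lower).

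The genes with the largest differences at a mean of at least 10 scaled TPM included several outside the lists. Highest were the hemoglobin genes Hba-a1, with 1131 and 1144 in RT 1dMeioLC, against 1.72 and 1.56 in RT 1dEB (8.75 ± 0.34), and Hbb-y (8.01 ± 0.33). Spink8, a serine protease inhibitor gene, had 162 and 178 in RT 1dMeioLC, against 0.212 and 0 in RT 1dEB. Cst8, a cystatin of the reproductive tract, had 239 and 204 in RT 1dMeioLC and was listed at 0 in both RT 1dEB libraries. The platelet factor Pf4 had 143 and 150.5 in RT 1dMeioLC and was listed at 0 in both RT 1dEB libraries, as was Mir7686, which had 445 and 273 in RT 1dMeioLC. Hba-a1, Hbb-y and Pf4 are blood cell genes. Hba-a1 and Hbb-y are themselves members of the blood marker list above, so their rise is not separate from that of the list.

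At the other end stood genes listed at 0 in RT 1dMeioLC. Mir1906-1 had 877 and 1001 scaled TPM in RT 1dEB, Mir7036 252 and 215, Mir1949 164 and 203 and Mir6904 159 and 180.2, and all 4 were at 0 in both RT 1dMeioLC libraries. Prl2c3, a placental prolactin-family gene with near-identical copies, was likewise at 0, against 170.1 and 184 in RT 1dEB. Lars2 (chr9:123366927-123462666), a mitochondrial leucyl-tRNA synthetase gene, had 13.7 and 14.9 in RT 1dMeioLC, against 8651 and 6953 in RT 1dEB (-8.99 ± 0.091, adjusted p = 1.29e-12). It fell together with the rRNA share of the libraries, whose part was not tested.

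The stage difference in RT was set against that of LT and of ST, as a difference of differences in the same fit. Both comparisons use the same 4 RT libraries and are not independent of each other. Against LT 721 genes had a higher (4.05%) and 1112 a lower (6.25%) stage difference in RT in all 3 scalings. On the scaled TPM alone 4.41% were higher and 14.3% lower, and 37.6% passed the adjusted p whatever their size. Against ST 1117 were higher (6.27%) and 718 lower (4.03%) in all 3 scalings, 6.62% higher and 12.1% lower on the scaled TPM alone, and 38.9% passed the adjusted p. Stra8 had a stage difference of 5.83 in RT, 6.66 in LT and 6.58 in ST, which gave -0.83 ± 0.27 in RT minus LT and -0.76 ± 0.27 in RT minus ST. Dazl had one of 5.40 in RT, 6.04 in LT and 4.57 in ST, which gave -0.64 ± 0.16 in RT minus LT and 0.83 ± 0.16 in RT minus ST. These 4 values were below the 2-fold rule, and that of Stra8 against ST turned to 0.12 on the TPM as deposited. Of the 30 tested meiotic chromosome genes 4930432K21Rik was lower than in LT in all 3 scalings (-2.01 ± 0.41) and none was higher, and against ST Stag3 was higher and Syce3 lower.

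**Figure D4:**
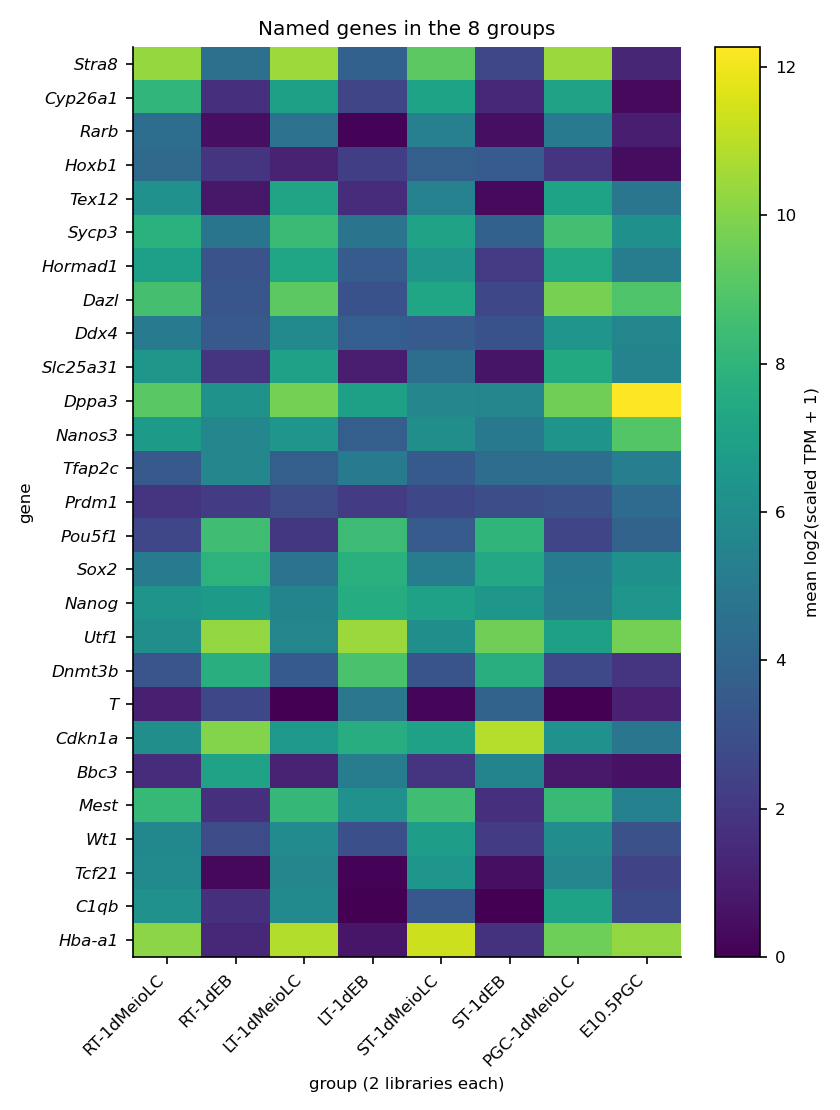
Heat map of the mean level (color, log2 of scaled TPM + 1) of 27 genes in 8 groups of 2 libraries each, the last 2 being meiocyte-like cells made from embryonic PGCs and E10.5 PGCs themselves. Stra8 and Dazl are high in the meiocyte-like groups, and Pou5f1 and Dnmt3b in the embryoid body groups, of all 3 lines.

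Against ST, the clearest germ cell difference was Dppa3. In ST it had 48.8 and 52.4 scaled TPM in 1dMeioLC, against 46.0 and 48.2 in 1dEB, while the RT values given above parted by 2.87. The stage difference was 2.76 ± 0.094 higher in RT than in ST (adjusted p = 5.6e-08). Ddx4 had 10.6 and 10.3 in ST 1dMeioLC, against 5.86 and 9.44 in ST 1dEB, and its stage difference was 1.21 ± 0.32 higher in RT (adjusted p = 0.0133). Without RT 1dEB replicate 2 that difference was 0.95 and no longer called (adjusted p = 0.0575). Asz1, Mael, Mov10l1 and Tdrkh of the late germ cell list were also higher against ST, which with Ddx4 makes 5 of 20, and none was lower. From the PGC list Dppa3, Ifitm3, Itgb3, Rhox5 and Rhox9 were higher, 5 of 23, and none was lower. Against LT, the germ cell transcription factors Figla (-3.36 ± 0.61) and Sohlh1 (-2.47 ± 0.30) of the late germ cell list were lower in all 3 scalings and none was higher. Of the PGC list Cxcr4, Itgb3 and Nanos3 were lower and Rhox6 and Rhox9 higher.

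Zscan4 genes differed from ST as well. Zscan4d had 9.23 and 9.60 scaled TPM in ST 1dMeioLC, against 7.58 and 2.70 in ST 1dEB, and its stage difference was 2.70 ± 0.44 higher in RT (adjusted p = 0.00102). Zscan4a, Zscan4c and Zscan4f were higher against ST too, and Zscan4c and Zscan4f against LT. Zscan4c had 3.58 and 1.89 in LT 1dMeioLC and was listed at 0 in both LT 1dEB libraries. In the RT 1dMeioLC libraries Zscan4c and Zscan4d stood above every LT and ST library of these stages.

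Against LT, p53 target genes differed. Cdkn1a had 96.8 and 88.9 scaled TPM in LT 1dMeioLC, against 202 and 199 in LT 1dEB, well below its level in RT 1dEB, and the stage difference was -2.83 ± 0.082 in RT minus LT (adjusted p = 2.75e-08). In ST, Cdkn1a had 126 and 135 in 1dMeioLC, against 1879 and 1929 in 1dEB, and the difference between the lines was not called (-0.07 ± 0.082 in RT minus ST, adjusted p = 0.53, with a sign that turned to 0.69 on the TPM as deposited). Btg2, Mdm2, Perp and Plk2 were lower than in LT with it, 5 of 25 p53 targets, while Gadd45a and Pmaip1 were higher.

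Nanog had 48.9 and 43.4 scaled TPM in LT 1dMeioLC, against 194 and 188 in LT 1dEB, and its stage difference was 1.69 ± 0.12 higher in RT (adjusted p = 4.48e-06). Nanos3 had 84.2 and 89.5 in LT 1dMeioLC, against 9.29 and 15.6 in LT 1dEB, with a stage difference of -1.73 ± 0.26 in RT minus LT (adjusted p = 0.00054). T was listed at 0 in both LT 1dMeioLC libraries, against 31.8 and 25.5 in LT 1dEB, and 0.336 and 0 in ST 1dMeioLC, against 15.6 and 12.3 in ST 1dEB. Its level in RT 1dEB was thus the lowest of the 3 lines, and its stage difference was called against both LT and ST. Hoxb1 had 1.91 and 0.925 in LT 1dMeioLC, against 5.43 and 2.60 in LT 1dEB, and its stage difference was 3.4 ± 0.50 higher in RT than in LT and 2.20 ± 0.50 higher than in ST. Most Hox genes did not share this. Of 30 tested, 2 had a higher and 10 a lower stage difference than in LT, and 4 a higher and 1 a lower one than in ST, in all 3 scalings.

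Interferon and matrix genes differed from both lines. Of 24 interferon genes 10 had a lower and 1 a higher stage difference in RT than in LT, and 9 had a higher and none a lower one than in ST. Usp18, which removes ISG15 from proteins, had 56.4 and 47.5 scaled TPM in LT 1dMeioLC, against 6.69 and 3.16 in LT 1dEB (-2.56 ± 0.34 in RT minus LT). The same gene had 46.2 and 49.0 in ST 1dMeioLC, against 86.5 and 90.2 in ST 1dEB (1.54 ± 0.34 in RT minus ST). Its level in RT 1dEB, at 23.7 and 24.1, lay between those of ST and LT. Of 20 stroma markers 10 were lower than in LT, and 9 higher and 1 lower than in ST. Mgp, a matrix protein, had 408 and 405 in RT 1dEB, 21.3 and 26.2 in LT 1dEB and 532 and 581 in ST 1dEB. Stroma marker sums were 2008 to 2046 in RT 1dEB, 773 to 784 in LT 1dEB and 4467 to 4476 in ST 1dEB, and their part in the other differences was not tested.

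**Figure D5:**
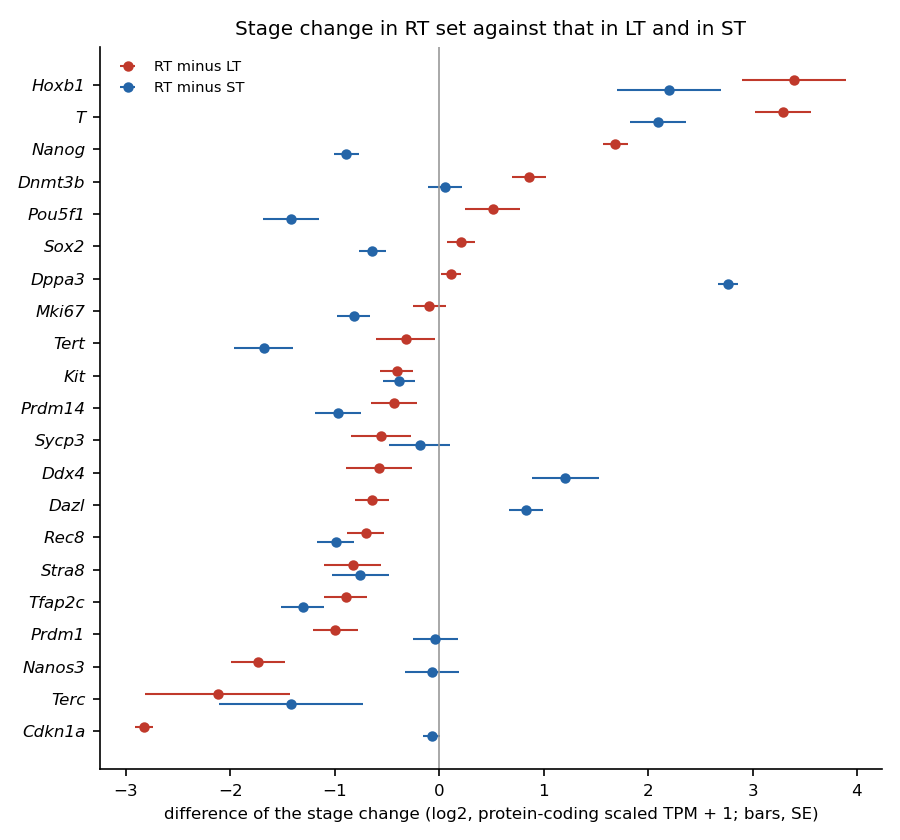
Difference of the stage change of the named marker genes in RT minus LT and in RT minus ST (x axis, log2) with standard errors. Dppa3 lies at 2.76 against ST, and against LT Cdkn1a lies at -2.83 and Hoxb1 at 3.4.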

How the data were processed

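Gene levels were taken from the authors' deposited TPM table of 53564 gene symbols. Bowtie2, HISAT2, RSEM, R 3.4.2, DESeq2 and build mm10 are named per the submitters' processing notes, while their roles, the read depth and the use of strand are not stated in any source at hand. TPM holds no counts, so depth is unknown and no counting interval is given. Of the 28 sample columns 16 matched 1 sample each and were used, and 12 were not used because their names did not settle the sample. In 24 symbols the name had been turned into a date.

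Each library's TPM was divided by its nuclear protein-coding total (21777 symbols, GENCODE M21) and multiplied by 1000000. limma 3.58.1 (R 4.3.3, eBayes with trend) was fitted to log2(scaled TPM + 1) over 16 libraries in 8 groups (8 residual degrees of freedom), with 2-sided tests and Benjamini-Hochberg adjustment over the 17803 genes. A call needs an adjusted p below 0.05 and a log2 difference of at least 1. On the log2(value + 1) scale, changes of low genes are understated. Requiring the call under all 3 scalings was decided after the data were seen. In simulated data with 100 genes changed by 1.5 and 100 by 3 on the log2 scale, 92% and 99% were recovered in the stage comparison, with 2 false calls of 193. For RT minus LT 86% and 96% were recovered, with 3 false calls of 185, and for RT minus ST 85% and 95%, with 10 of 190. The simulation had normal noise, no shift in composition and few changed genes, and used a single fit. It therefore does not describe the calls in all 3 scalings.

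Members and gene lists were chosen with earlier results of these data known, so no list is independent support. Named by rule were 22 marker genes, up to 4 called members of each list by size of difference, and the 6 highest and 6 lowest genes at a mean of at least 10 scaled TPM, without unnamed or date-like symbols. For the differences from LT and ST the 3 highest and 3 lowest genes were taken. Further genes named beside them were chosen after their values were seen. Of the list symbols 5 were found under another name. Alternatives were other scalings, pseudocounts and filters, a fit without trend, a replicate block, the 4 RT libraries alone, and leaving out each RT library. Gene coordinates are those of GENCODE M21 (mm10), and promoter windows were read from RefSeq tables. Results for some genes are not reported here.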

Additional observations from a re-analysis of the deposited data

Results flagged for a closer look

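A test of the difference between stage changes singled out these genes (log2 units, RT first). Against LT, marker genes with a called difference were Nanos3 at -1.73 ± 0.26, Nanog at 1.69 ± 0.12, T at 3.29 ± 0.27, Hoxb1 at 3.4 ± 0.50 and Cdkn1a at -2.83 ± 0.082, with levels given in the report and T listed at 0 in both LT 1dMeioLC libraries. Terc, at -2.12 ± 0.69 (adjusted p = 0.0346), was not called in all 3 scalings. Against ST they were Ddx4 at 1.21 ± 0.32, Dppa3 at 2.76 ± 0.094, T at 2.09 ± 0.27 and Hoxb1 at 2.20 ± 0.50. Tert at -1.68 ± 0.28, Tfap2c at -1.31 ± 0.20 and Pou5f1 at -1.42 ± 0.26 were called on the scaled TPM but not in all 3 scalings.

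By size of the difference, many of the genes were short RNA genes. Against LT the lowest were Mir484 at -7.84 ± 1.1, Trdj1 at -6.95 ± 1.8 and Mir199a-1 at -5.75 ± 0.44, and the highest Mir719 at 6.08 ± 1.5, Mir142hg at 5.28 ± 1.4 and Snord64 at 5.26 ± 1.3. Against ST the lowest were n-R5s33 at -7.17 ± 1.1, Mir290a at -6.55 ± 1.9 and Mir6948 at -6.23 ± 1.5, and the highest Pyy at 10.03 ± 0.39, followed by Mir719 at 7.18 ± 1.5 and Mir125b-1 at 7.11 ± 1.4. Several of these rest on libraries listed at 0, and leaving out 1 library turned the RT stage difference of Trdj1, Snord64, Mir142hg and Mir125b-1. Leaving out single RT libraries also ended the calls of Mir142hg against LT and of Mir290a and Cd74 against ST. Pyy, a gut peptide hormone gene, had 76.3 and 90.2 scaled TPM in RT 1dMeioLC, against 0.552 and 0 in RT 1dEB, and was listed at 0 in both ST 1dMeioLC libraries, against 13.3 and 15.9 in ST 1dEB.

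Protein-coding genes with the largest differences were picked after their values were seen. Against LT, Cxcl10, an interferon-induced chemokine, lay at -4.63 ± 0.20. It had 44.9 and 47.3 scaled TPM in RT 1dMeioLC, against 40.8 and 35.3 in RT 1dEB, and 128 and 130.4 in LT 1dMeioLC, against 2.69 and 4.12 in LT 1dEB. Acta2, smooth muscle actin, lay at -4.57 ± 0.23, with 144 and 141 in RT 1dEB and 5.67 and 3.91 in LT 1dEB. Ctla2a lay at -4.23 ± 0.33, Pnma5 at 3.77 ± 0.41, Gc at 3.83 ± 0.26 and Mest at 4.56 ± 0.11. Mest had 289 and 289.7 in LT 1dMeioLC, against 74.1 and 71.5 in LT 1dEB, where RT 1dEB had 2.56 and 1.93.

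Against ST, Srgn, a proteoglycan of secretory granules, lay at 5.68 ± 0.38. It had 5.87 and 8.197 scaled TPM in RT 1dMeioLC, against 4.20 and 4.63 in RT 1dEB, and 0.354 and 1.42 in ST 1dMeioLC, against 52.1 and 73.7 in ST 1dEB. S100g lay at 5.81 ± 0.47, Gdf15 at -3.83 ± 0.49 and Cldn4 at -3.50 ± 0.27. Cd74, the invariant chain of MHC class II, lay at -3.85 ± 1.2 (adjusted p = 0.0263), but its RT 1dEB libraries differed widely, at 1.61 and 31.5, and its RT stage difference changed sign without the first of them.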

How the results depend on the processing

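The balance of calls depended on the scaling. On the TPM as deposited, 5869 genes were higher and 2484 lower (main 2990 and 6209), with 1724 and 1180 for RT minus LT (main 785 and 2553) and 3285 and 751 for RT minus ST (main 1179 and 2163). Quantile normalization gave 4275 higher and 4105 lower, with 1487 lower against LT and 1325 lower against ST. A pseudocount of 5 gave 1962 higher, with 509 and 1468 against LT and 719 and 1225 against ST. A minimum of 5 TPM gave 3032 lower, with 506 and 1013 against LT and 615 and 860 against ST, from fewer genes tested, and no filter gave 4257 lower against LT and 3714 lower against ST, from more. Leaving out each RT library gave 2859 to 2981 higher and 5961 to 6094 lower, 692 to 780 and 2299 to 2434 against LT, and 1039 to 1103 and 1893 to 2025 against ST. Replicate numbers did not pair the samples (correlation of same-numbered deviations 0.0364), and a fit with the replicate block called 2981 higher and 6186 lower, 754 and 2459 against LT, and 1131 and 2061 against ST, and did not call Snord64 (adjusted p = 0.0533) and Mir142hg (adjusted p = 0.0568) against LT. Signs turned for differences that were small or rested on libraries near 0. On the TPM as deposited the stage difference was 0.78 for Rec8, 0.38 for Prdm1, 0.75 for Nanog and 0.74 for Mki67, and after quantile normalization 0.28 for Rec8, 0.32 for Prdm1 and 0.22 for Mki67. Leaving out each RT library gave -0.050 to 0.30 for Prdm14, -3.91 to 0.42 for Trdj1, -1.32 to 1.73 for Snord64, -2.13 to 1.10 for Mir142hg, -0.87 to 3.69 for Mir125b-1 and -0.78 to 2.86 for Cd74. For RT minus LT, Tert turned to 0.082 on the TPM as deposited and 0.019 after quantile normalization, Prdm14 to 0.012 after quantile normalization, and Mki67 to 0.32 and 0.11 under these scalings, with -0.27 to 0.084 as single libraries were left out. For RT minus ST on the TPM as deposited, Stra8 turned to 0.12, Sycp3 to 0.56, Prdm1 to 0.36, Nanos3 to 0.66, Kit to 0.30, Sox2 to 0.11 and Cdkn1a to 0.69. After quantile normalization Prdm1 turned to 0.31, Kit to 0.050 and Cdkn1a to 0.20. Prdm1 was 0.016 with a pseudocount of 5. As single libraries were left out it lay between -0.23 and 0.16, and Dnmt3b between -0.061 and 0.17. Leaving out the protein-coding scaling moves genes well above 0 upward by nearly the same amount within a comparison. The median over all genes went from -0.48 to 0.46 for the stage difference. It went from -0.20 to 0.17 for RT minus LT and from -0.19 to 0.42 for RT minus ST. Turns on the TPM as deposited are part of this shift. The cause of the turns in other settings was not tested. Of 245 results recomputed without the trend or without a filter, all kept their direction and side of the threshold. TPM carry no depth, so low values have no counting error here.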

Other observations

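Lars2 had the same order as the share of the chromosome 17 rRNA-like locus in the embryoid bodies of the 3 lines. It had 8651 and 6953 scaled TPM in RT 1dEB, 4100.0 and 3987 in LT 1dEB and 2921 and 2985 in ST 1dEB, where that locus took 39.6%, 27.7% and 24.3% of the TPM. In the meiocyte-like cells it had 13.7 and 14.9 in RT, 22.4 and 21.7 in LT and 57.5 and 57.7 in ST, at shares of 1.38%, 1.91% and 9.18%.

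Gonadal somatic marker sums in the meiocyte-like cells were 511 to 515 scaled TPM in RT, 635 to 651 in LT and 889 to 909 in ST. Blood marker sums there were 2331 to 2369 in RT, 3349 to 3449 in LT and 4032 to 4075 in ST. Late germ cell sums were 1025 to 1067 in RT, 1438 to 1476 in LT and 403 to 429 in ST. RT lay between the other lines in the germ cell sum and below both in the gonadal somatic and blood sums. Stroma sums there were 1317 to 1333 in RT, 1346 to 1371 in LT and 1606 to 1646 in ST. Endothelial sums went the other way, at 239 to 248 in RT, 187 to 188 in LT and 213 to 214 in ST.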
